A study of Homo sapiens with 8 samples.

Results

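The zinc finger genes of chromosome 19 were described in HEK293T cells that received 3 dCas9 transcriptional activation systems. Members were the protein-coding genes of chromosome 19 whose symbol begins with ZNF and a digit, as listed in all 8 libraries, and they numbered 202 of the 19770 genes listed. In all, 179 of the 202 members reached 1 CPM (read counts scaled to a fixed library total) in at least 2 libraries and were tested, while 23 did not and were left out of every count of calls below. By position on hg38, with a gap of over 1 Mb between starts opening another stretch, 194 members fell into 11 stretches of 3 to 53 members and 8 were scattered.

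C2H2 zinc finger proteins bind DNA through tandem fingers, each held by a zinc ion, and the human family grew largely by local duplication, which left long runs of related genes on chromosome 19. Many members also carry a KRAB domain, which recruits TRIM28 and, through it, the H3K9 methyltransferase SETDB1, heterochromatin protein 1 and histone deacetylases. KRAB zinc finger proteins are best known as repressors of transposable elements, and several bodies of ZNF genes are themselves marked by H3K9me3.

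RNA was collected 72 h post-transfection from 4 groups of 2 libraries each. Cells of the Control group received dCas9 and MCP-mCherry, those of the DREAM group dCas9 and MCP-MSN, those of the SAM group dCas9-VP64 and MCP-p65-HSF1, and those of the dCas9-VPR group the activator VPR fused to dCas9. All groups, Control included, also received pooled gRNAs against HBG1 and HBG2, which carried MS2 loops for the 3 groups with an MCP protein but not for dCas9-VPR. The dCas9-VPR group therefore differs from Control in the gRNA scaffold and in the lack of an MCP plasmid as well as in the activator, and these cannot be told apart. HEK293T is an embryonic kidney line that carries the SV40 large T antigen, it was transiently transfected, and the labels give no separate cultures for the replicates, so p-values measure only the spread between these libraries. As bulk RNA, the libraries cannot tell fewer cells expressing a gene from less RNA per cell.

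The steps between low CPM values put the depth of the libraries at 28.5 to 35.2 M reads, at which 3 reads correspond to 0.085 to 0.105 CPM. HBG2, a targeted gene, was at 0.837 and 1.29 CPM in Control and at 201.3 CPM or more in all 6 libraries with an activator. The epithelial keratins KRT8 and KRT18, expected in this line, were at 45.2 to 112.6 and 79.7 to 101.3 CPM, and LIN28B was at 63.0 to 81.4 CPM. PECAM1, an endothelial gene, was at 1.17 CPM or less, and COL3A1, a fibroblast collagen, was at 1.96 to 5.18 CPM. PAX2, although also expected in this line, was at only 0.798 to 1.73 CPM, below COL3A1 and overlapping PECAM1. Of the 9 listed markers found, KRT8 and KRT18 rose in all 3 comparisons with Control. NEFL and PECAM1 rose with DREAM and SAM and PAX2 with SAM, while VIM fell with DREAM and SAM and CDH2 and COL3A1 with DREAM, and LIN28B passed in none of the 3. Their part in the results below was not tested.

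Most members were expressed at low levels. The median of the members' mean CPM over the 8 libraries was 5.01, against 19.9 for all protein-coding genes listed. The mean reached 10 CPM for 46 members, lay between 1 and 10 CPM for 131 and was below 1 CPM for 25, with a range of 0.315 to 62.2 CPM. Per kb of exon, the 5 highest were ZNF581 at 38, ZNF428 at 23.7, ZNF358 at 22.8, ZNF146 at 14.2 and ZNF580 at 10.3 CPM per kb, against a median of 0.926 over all members. In these 5 the coding sequences hold 4, 1, 9, 10 and 3 fingers, respectively, against a median of 12 over the members, and none of the 5 holds the KRAB A box pattern described below. The lowest of the tested members per kb were ZNF506 at 0.095, ZNF525 at 0.117 and ZNF577 at 0.125 CPM per kb. ZNF580 and ZNF581 overlap each other on the same strand, which makes the division of reads between them uncertain. ZNF358 likewise overlaps AC008878.1 on the same strand.

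With DREAM, which recruits the MSN module through MS2 loops in the gRNA, many of these genes were at lower levels. Relative to Control, 35 of the 179 tested members were lower and 2 were higher at a false discovery rate (FDR) below 0.05 (limma on log2(CPM + 0.5), Benjamini-Hochberg over all 15122 genes tested). The members' shares of 19.6% lower and 1.12% higher stand beside 9.25% lower and 18.8% higher over all genes tested. The median log2 fold change was -0.159 over the members and 0.064 over all genes tested, and 124 of the 179 values were below 0. Summed over the 202 members, CPM was 1705 and 1667 in the Control libraries and 1558 and 1451 in the DREAM libraries, a change in the mean of -10.8%, with no overlap between Control and DREAM. Past a fold change of 2, 3 members were lower (ZNF57, ZNF77 and ZNF211) and 0 were higher by limma, as at an unadjusted p below 0.05, against 0.503% and 2.04% of all genes tested. The count of lower members was 22 without Control replicate 1 and 16 without Control replicate 2, while the median stayed between -0.214 and -0.114 without any single library. The 2 members that rose were ZNF428 and ZNF837.

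SAM gave a mixed picture. In these libraries 22 members were lower and 15 higher at an FDR below 0.05, or 12.3% and 8.38% of those tested, against 8.89% lower and 35.7% higher over all genes tested. The median log2 fold change was -0.002 over the members and 0.163 over all genes tested, and summed CPM was 1688 and 1639, a change in the mean of -1.36%. The ranges of summed CPM in Control and SAM overlapped. The members stood below the other genes of the same libraries under either scaling, but the direction of the members depended on it. When CPM values were rescaled by median-of-ratios size factors, the median over all genes moved from 0.163 to -0.011 and that of the members to -0.174. The members' calls became 49 lower and 2 higher, or 27.4% and 1.12%. Over all genes tested the shares became 21.1% lower and 18.1% higher, so the share lower rose there too. With the same rescaling the DREAM calls became 53 lower and 1 higher, or 29.6% and 0.559%, against 14.3% and 13.7% of all genes. The dCas9-VPR calls became 39 lower and 1 higher, or 21.8% and 0.559%, against 8.9% and 8.08%. Past a fold change of 2 with SAM, 2 members were lower (ZNF57 and ZNF77) and 0 were higher by limma, as at an unadjusted p below 0.05, against 0.456% and 3.89% of all genes tested. Without Control replicate 2, SAM replicate 1 or SAM replicate 2 the higher calls numbered 4, 5 and 5, and without Control replicate 2 or SAM replicate 2 the lower calls numbered 14 and 12.

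The largest rises with SAM were taken among members with a mean of at least 3 CPM and groups that did not overlap. By log2 fold change they were ZNF837 (0.87), ZNF428 (0.63), ZNF738 (0.47), ZNF579 (0.40) and ZNF714 (0.39). ZNF738 was at 9.0 and 6.59 CPM in Control and at 11.5 and 10.2 CPM with SAM. ZNF714 was at 16.6 and 14.5 CPM in Control and at 20.8 and 20.2 CPM with SAM. The calls for ZNF738, ZNF579 and ZNF714 were lost under median-of-ratios scaling, and without Control replicate 2 or SAM replicate 1. Those for ZNF738 and ZNF714 were also lost without SAM replicate 2. ZNF738 and ZNF714, like ZNF100 and ZNF254, which also passed the test, lie in the stretch from 20.9 to 24.1 Mb, where 4 of 12 tested members (33.3%) were higher and 0 were lower by limma, also at an unadjusted p below 0.05. The share that was higher is near the 35.7% of all genes tested.

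With dCas9-VPR, 32 members were lower and 2 were higher at an FDR below 0.05, or 17.9% and 1.12%, against 6.68% lower and 11.0% higher over all genes tested. The median log2 fold change was -0.131 over the members and 0.061 over all genes tested, with 126 of 179 values below 0. Summed CPM was 1529 and 1466, below both Control libraries, a change in the mean of -11.2%. Past a fold change of 2, ZNF57 and ZNF77 were lower and 0 members were higher by limma, as at an unadjusted p below 0.05, against 0.641% and 0.463% of all genes tested. Both members that rose, ZNF428 and ZNF100, rose with SAM as well. The lower calls numbered 18 without Control replicate 1, 11 without Control replicate 2 and 10 without either dCas9-VPR replicate, while the median stayed between -0.171 and -0.111.

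**Figure D1:**
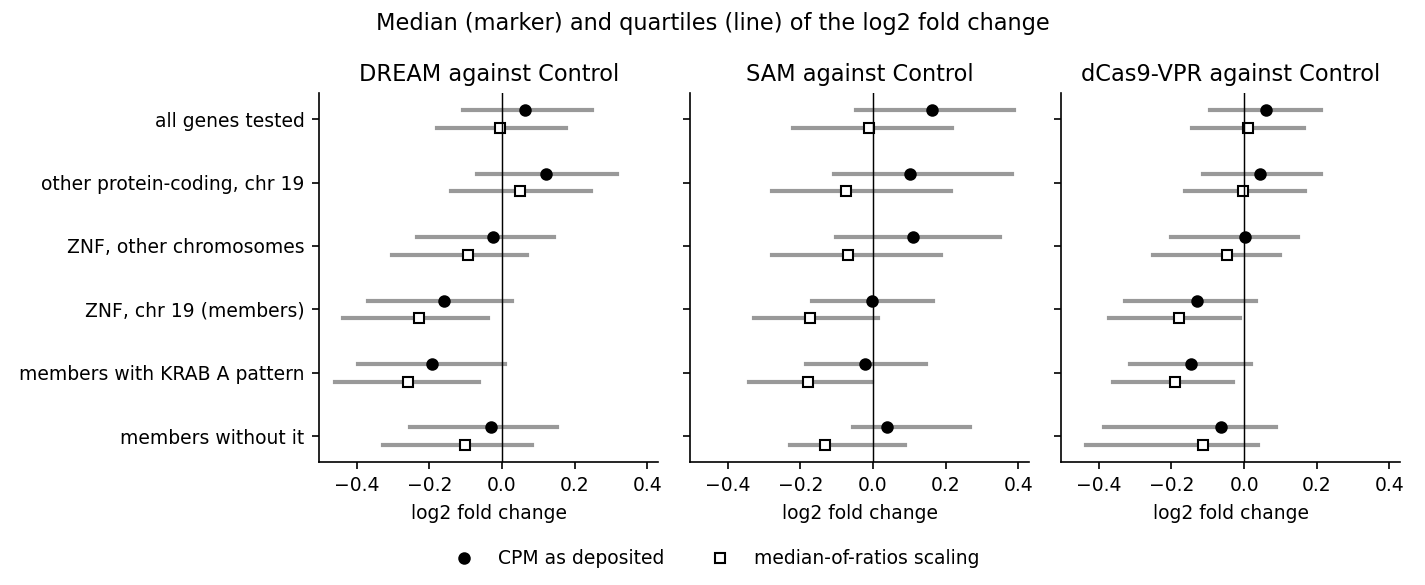
Median (marker) and quartiles (line) of the log2 fold change of each system relative to Control, for all 15122 genes tested, 763 other protein-coding genes of chromosome 19, 227 ZNF genes of other chromosomes, the 179 members, and the members with (145) and without (34) a KRAB A box pattern. Filled circles show CPM as deposited and open squares median-of-ratios scaling. The member medians lie below those of all genes tested in each panel.

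The same count was taken for other genes of the chromosome and for zinc finger genes elsewhere. Of 763 other protein-coding genes of chromosome 19, 68 (8.91%) were lower and 193 (25.3%) higher with DREAM. With SAM 92 (12.1%) were lower and 248 (32.5%) higher, and with dCas9-VPR 76 (9.96%) and 85 (11.1%). The median log2 fold changes of these genes were 0.120, 0.102 and 0.045. Among 72 of them that lie within the 11 stretches, 9 (12.5%) were lower and 11 (15.3%) higher with DREAM, with a median of 0.094. Of 227 ZNF genes on other chromosomes, 34 (15.0%) were lower and 14 (6.17%) higher with DREAM. With SAM 27 (11.9%) were lower and 60 (26.4%) higher, and with dCas9-VPR 36 (15.9%) and 8 (3.52%). Of the members, 19.6%, 12.3% and 17.9% were lower and 1.12%, 8.38% and 1.12% higher. With SAM the share lower was thus close in the 2 sets of ZNF genes, and larger among the 72 (15.3%). With dCas9-VPR the share lower among the 72 (16.7%) was near that of the members. The medians of the ZNF genes elsewhere were -0.024, 0.109 and 0.003. The members thus had the lowest median of these sets in each comparison. No test was run between the sets.

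A pattern of the KRAB A box was found in the Gencode 44 coding sequences of 166 members, of which 145 were tested, and was not found in 36, of which 34 were tested. With DREAM, 31 of the 145 (21.4%) were lower and 0 higher by limma (2 at an unadjusted p below 0.05), with a median log2 fold change of -0.194. Of the 34, 4 (11.8%) were lower and 2 (5.88%) higher, with a median of -0.031. Over all genes tested, 9.25% were lower and 18.8% higher. Summed CPM of the members with the pattern was 1118 and 1098 in Control and 977.2 and 886.5 with DREAM, a change in the mean of -15.9%, and for those without it the sums were 587.2 and 568.6 against 580.6 and 564.5. The second pair of sums overlapped and the first did not. With SAM, 20 of the 145 (13.8%) were lower and 8 (5.52%) higher, and 2 of the 34 (5.88%) were lower and 7 (20.6%) higher. Over all genes tested, 8.89% were lower and 35.7% higher with SAM, so that both shares higher lay below that of all genes. With dCas9-VPR 22 of the 145 (15.2%) and 10 of the 34 (29.4%) were lower, against 6.68% of all genes tested. The medians were -0.147 and -0.063 and the mean sums changed by -13.4% and -6.94%. The share lower and the median thus ordered the 2 sets differently. The difference between the sets was not tested. A missed pattern does not show that the domain is absent.

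In total, 14 of the 179 tested members (7.82%) were lower in all 3 comparisons with Control, against 2.83% of all genes tested, and 1, ZNF428, was higher in all 3, against 6.58%. The 3 comparisons share the 2 Control libraries and are not independent. The 14 were ZNF57, ZNF77, ZNF420, ZNF875, ZNF155, ZNF222, ZNF71, ZNF550, ZNF416, ZNF530, ZNF211, ZNF776, ZNF256 and ZNF329, of which ZNF420, ZNF875, ZNF71, ZNF776, ZNF256 and ZNF329 are named here after their values were seen. Of the 14, 6 were called in all 3 comparisons under every one of 13 alternative fits (ZNF57, ZNF77, ZNF222, ZNF550, ZNF530 and ZNF211). In all, 63 members (35.2% of those tested) were called in at least 1 of the 3 comparisons and 116 tested members in none. The share over all genes tested is not given for this count or for the 6. With SAM alone, however, 35.7% of all genes tested were higher and 8.89% lower, so the members' 35.2% does not exceed the share over all genes.

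ZNF57 (chr19:2900898-2918473, plus strand) had the largest fall of the tested members with DREAM and with dCas9-VPR on the log2(CPM + 0.5) scale. It was at 12.4 and 11.3 CPM in Control, 4.50 and 4.81 with DREAM, 4.82 and 5.12 with SAM, and 4.55 and 5.46 with dCas9-VPR. All 6 libraries with an activator were below both Control libraries, and the 3 systems did not differ from each other past the threshold. Non-overlap with Control was a condition for naming the largest rises and falls, here and below. The log2 fold changes were -1.26, -1.17 and -1.17, with a standard error (SE) of 0.125 each (limma adjusted p = 8.48e-05, 0.000104 and 0.000437). ZNF57 overlaps AC119403.1 on the other strand, and the sources used here do not say whether strand was used in counting.

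ZNF77 (chr19:2933218-2944971, minus strand), the neighbour of ZNF57, had the largest fall of the tested members with SAM. It was at 17.1 and 19.5 CPM in Control, 7.81 and 7.94 with DREAM, 6.89 and 8.27 with SAM, and 9.24 and 8.47 with dCas9-VPR. The Control libraries again lay above the other 6. The log2 fold changes were -1.16, -1.22 and -1.0 (SE 0.118 each, limma adjusted p = 9.56e-05, 5.98e-05 and 0.000706). With dCas9-VPR the fold change was just past 2, and only ZNF57 remained past it with a pseudocount of 1. ZNF433, named here after its values were seen, was below the filter and not tested. It was at 1.01 and 0.880 CPM in Control and between 0.190 and 0.370 CPM in the other 6 libraries. The ratio is larger than that of ZNF57 or ZNF77 but rests on few reads. ZNF433 also overlaps AC008770.4 and ZNF433-AS1 on the other strand.

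ZNF211 (chr19:57630395-57644041, plus strand) was at 17.1 and 16.4 CPM in Control, 8.26 and 7.20 with DREAM, 8.78 and 8.87 with SAM, and 8.70 and 8.28 with dCas9-VPR, with log2 fold changes of -1.07, -0.89 and -0.94 (SE 0.103 each, limma adjusted p = 7.02e-05, 0.000164 and 0.000504). ZNF550 was at 11.6 and 12.7 CPM in Control and between 6.14 and 6.93 CPM in the other 6 libraries, with log2 fold changes of -0.89, -0.79 and -0.80. It overlaps ZNF549 on the other strand. ZNF530 was at 12.3 and 12.8 CPM in Control, 7.43 and 6.67 with DREAM, 8.0 and 8.44 with SAM, and 6.30 and 6.26 with dCas9-VPR, with log2 fold changes of -0.79, -0.58 and -0.95. For these 3 genes the Control libraries did not overlap any other group. That was a condition for naming ZNF211 with all 3 systems, ZNF550 with SAM and ZNF530 with dCas9-VPR.

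ZNF416 was at 9.60 and 9.97 CPM in Control, 4.87 and 5.20 with DREAM, 7.26 and 6.48 with SAM, and 5.58 and 5.20 with dCas9-VPR, and overlaps ZIK1 on the other strand. Its log2 fold changes were -0.89, -0.48 and -0.81 (SE 0.114 each, limma adjusted p = 0.000373, 0.00672 and 0.00194), and the call with SAM was lost without SAM replicate 2. ZNF155 fell from 6.53 and 5.57 CPM in Control to 3.49 and 2.56 with DREAM and to 3.96 and 3.42 with SAM, with log2 fold changes of -0.90 and -0.64. The SAM call was lost without Control replicate 1 or SAM replicate 2, and that with dCas9-VPR without any 1 of its own or the Control libraries. ZNF222, in the same stretch, fell from 5.50 and 4.90 CPM to 2.62 and 2.52 with DREAM, 3.15 and 3.47 with SAM and 2.73 and 2.75 with dCas9-VPR. It overlaps AC067968.1 on the same strand. ZNF420, known as a p53-interacting repressor, was at 19.3 and 20.6 CPM in Control and between 12.5 and 15.7 CPM elsewhere.

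**Figure D2:**
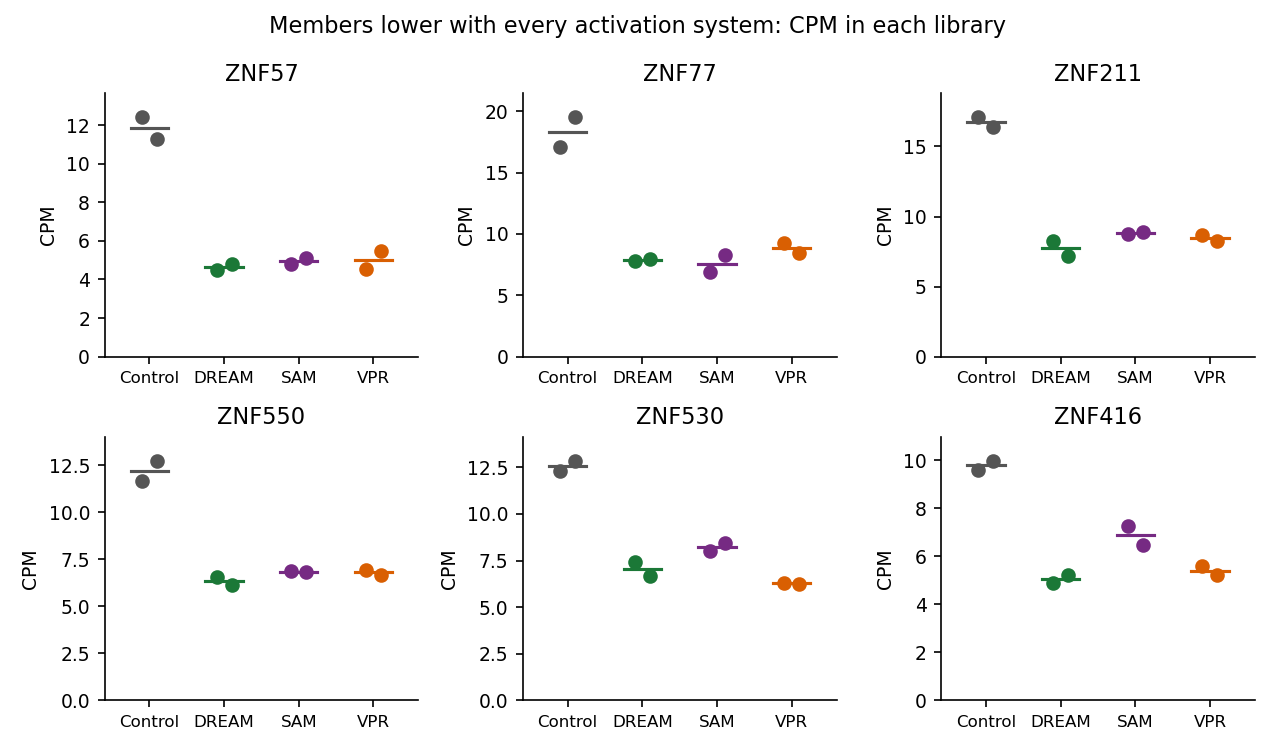
CPM of 6 members that were lower in all 3 comparisons with Control, in each library (points, 2 per group) with the group mean (line), on axes that start at 0. For each gene both Control libraries lie above the other 6 libraries, as for ZNF57 at 12.4 and 11.3 CPM against 5.46 CPM or less.

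Upstream sequence was examined for letters shared by the members, those lower in all 3 comparisons among them. RefSeq promoter windows on GRCh38.p14 were matched for 181 of the 202 members, and of the 31 with more than 1 window that with the start nearest the listed 5′ end was used. The 250 bases before the start were searched on both strands for CCAAT (the NF-Y box), CCGGAAG (the core bound by ETS factors) and GGGCGG (the GC box). CCAAT was in 88 of the 181 windows (48.6%), against 32.0% of all 35116 RefSeq windows, 34.7% of those of 11915 protein-coding genes in the files and 41.8% of those of 194 ZNF genes elsewhere. CCGGAAG was in 55 (30.4%), against 8.52%, 14.4% and 27.3% of the same 3 sets, and GGGCGG in 111 (61.3%), against 42.6%, 66.2% and 61.9%. Among the 14 members lower in all 3 comparisons 12 had a window, of which 6 held CCAAT, 3 held CCGGAAG and 6 held GGGCGG. The 12 include ZNF420 and ZNF329, whose windows belong to starts 70365 and 4322 bases from the listed 5′ end. These matches are descriptions of letters and not of bound sites.

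The windows of ZNF57 (chr19:2900678-2900927, plus strand), ZNF77 (chr19:2944972-2945221, minus strand), ZNF776 (chr19:57746565-57746814, plus strand), ZNF222 (chr19:44025129-44025378, plus strand) and ZNF550 (chr19:57559864-57560113, minus strand) are shown 5′ to 3′ on the gene's strand, up to the base before the start, because they range from many matches to none among members lower in all 3 comparisons. Capitals mark CCAAT and CCGGAAG on either strand.
ZNF57: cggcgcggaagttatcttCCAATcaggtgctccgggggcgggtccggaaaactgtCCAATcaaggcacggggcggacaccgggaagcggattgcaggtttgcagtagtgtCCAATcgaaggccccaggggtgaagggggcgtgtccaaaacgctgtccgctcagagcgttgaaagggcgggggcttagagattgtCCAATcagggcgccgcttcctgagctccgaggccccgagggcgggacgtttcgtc
ZNF77: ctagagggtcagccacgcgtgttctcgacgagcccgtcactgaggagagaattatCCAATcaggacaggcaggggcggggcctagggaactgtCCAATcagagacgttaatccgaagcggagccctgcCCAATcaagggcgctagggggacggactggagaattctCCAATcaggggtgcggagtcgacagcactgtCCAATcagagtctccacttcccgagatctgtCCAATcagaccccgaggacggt
ZNF776: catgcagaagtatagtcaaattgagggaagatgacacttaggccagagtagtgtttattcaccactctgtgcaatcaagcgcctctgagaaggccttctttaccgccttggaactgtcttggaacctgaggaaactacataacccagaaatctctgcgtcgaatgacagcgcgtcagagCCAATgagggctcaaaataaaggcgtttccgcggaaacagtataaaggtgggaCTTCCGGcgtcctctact
ZNF222: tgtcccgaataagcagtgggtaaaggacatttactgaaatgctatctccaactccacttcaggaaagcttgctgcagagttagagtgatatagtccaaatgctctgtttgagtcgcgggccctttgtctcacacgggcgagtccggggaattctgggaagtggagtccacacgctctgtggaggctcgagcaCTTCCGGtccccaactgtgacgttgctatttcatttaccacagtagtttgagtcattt
ZNF550: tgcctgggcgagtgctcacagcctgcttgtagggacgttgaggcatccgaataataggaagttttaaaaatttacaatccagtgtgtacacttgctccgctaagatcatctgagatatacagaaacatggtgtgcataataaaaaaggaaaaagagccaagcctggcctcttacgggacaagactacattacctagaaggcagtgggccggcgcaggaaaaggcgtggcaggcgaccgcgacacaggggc

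The neighbours ZNF57 and ZNF77 held 4 and 6 copies of CCAAT on the gene's strand. Those of ZNF57 began 232, 195, 140 and 55 bases before the start, and those of ZNF77 began 195, 157, 122, 84, 53 and 22 bases before it. At least 4 copies, the number in ZNF57 itself, were in 5 member windows (2.76%), against 0.874% of all RefSeq windows. The cut was taken from a member chosen for its fall and counted among the 5, so these shares are a description only. No such count is given for protein-coding genes or ZNF genes elsewhere. Of the 5, 3 (ZNF555, ZNF57 and ZNF77) lie in the same stretch. Of the other two, ZNF317 was at 32.5 and 32.3 CPM in Control and at 24.3 and 26 CPM with dCas9-VPR (log2 fold change -0.36, limma adjusted p = 0.0181), and ZNF8, at 1.40 to 2.14 CPM, passed in no comparison with Control. ZNF776 held 1 match each of CCAAT and the ETS core, ZNF222 held the ETS core alone, and ZNF550, which fell in every comparison with Control, held neither. ZNF776 was at 13.4 and 14.5 CPM in Control and between 8.11 and 10.2 CPM elsewhere, and ZNF256, which also fell in all 3 comparisons, was at 4.37 and 4.70 CPM in Control and between 1.99 and 2.97 CPM elsewhere.

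Stretches of the chromosome differed in how many members were called. In the stretch of 4 members from 2.8 to 2.9 Mb (ZNF554, ZNF555, ZNF57 and ZNF77), summed CPM was 47.8 and 49.4 in Control and between 27.3 and 30.7 in the other 6 libraries, changes in the mean of -42.3%, -39.6% and -37.2% with DREAM, SAM and dCas9-VPR. ZNF555 was at 10.9 CPM in both Control libraries and between 7.57 and 8.96 CPM elsewhere, and passed the test with DREAM and SAM. In the stretch of 3 members from 19.7 to 19.8 Mb, ZNF101 and ZNF14 were lower with DREAM and SAM and the mean sum changed by -30.6% and -29.4%, while ZNF506 was near 1 CPM. In the 3 members from 40.0 to 40.1 Mb, by contrast, 0 were called in any comparison with Control by limma, and at an unadjusted p below 0.05 only 1 was higher with SAM and 1 with dCas9-VPR. Of the 26 tested members from 51.6 to 53.6 Mb, 2 were lower with DREAM (ZNF613 and ZNF701), or 7.69%, against 9.25% of all genes tested. In that stretch 0 were called with SAM or dCas9-VPR, against 1 and 5 lower at an unadjusted p below 0.05.

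The largest stretch, 53 members from 55.5 to 58.5 Mb, had 49 tested members. With dCas9-VPR 17 of these (34.7%, against 6.68% of all genes tested) were lower and 0 higher by limma (1 at an unadjusted p below 0.05). With DREAM 10 were lower (20.4%, against 9.25%) and 1 higher. With SAM 9 were lower (18.4%, against 8.89%) and 4 higher (8.16%, against 35.7%). Summed CPM was 538.0 and 551.3 in Control, 470.9 and 478.3 with DREAM, 514.0 and 499.5 with SAM, and 456.2 and 436.2 with dCas9-VPR, so that all 3 systems lay below Control. Within it, 7 adjacent members over 223 kb from 57.54 to 57.76 Mb, singled out after their values were seen, were ZNF550, ZNF416, ZNF530, ZNF134, ZNF211, ZNF551 and ZNF776. Of these 7, 6 were lower with DREAM, 5 with SAM and 6 with dCas9-VPR. The exception in each comparison was ZNF551, at 9.14 and 8.92 CPM in Control and between 5.93 and 8.76 CPM elsewhere, and ZNF134 also did not pass with SAM. Downstream of the run, ZNF586, ZNF552, ZNF587 and ZNF417 passed in no comparison with Control. ZNF587B, which lies among them, was higher with SAM, a call lost under median-of-ratios scaling. ZNF256, the next member beyond ZNF417, was lower in all 3 comparisons.

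**Figure D3:**
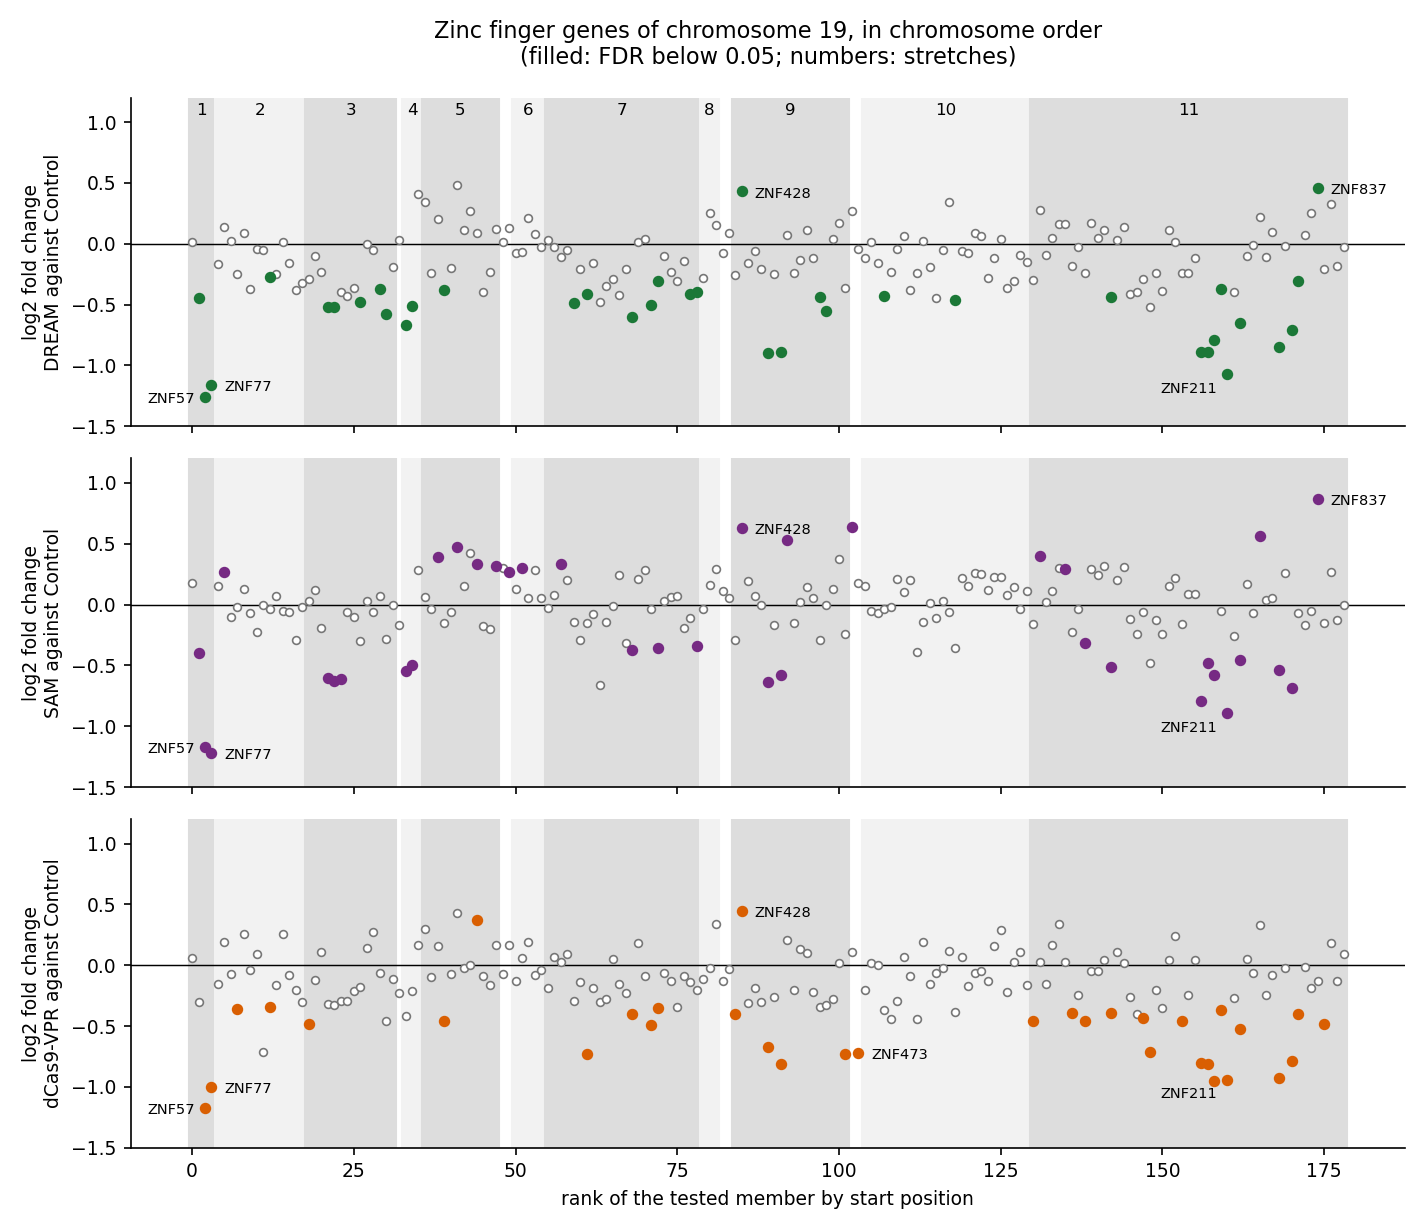
Log2 fold change of the 179 tested members relative to Control, in order of start position along chromosome 19, for DREAM, SAM and dCas9-VPR. Filled points passed an FDR below 0.05, shading and numbers mark the 11 stretches, and labels name 6 members where they passed. Filled points lie mostly below 0 with DREAM (35 of 37) and dCas9-VPR (32 of 34) and on both sides with SAM (22 of 37).

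**Figure D4:**
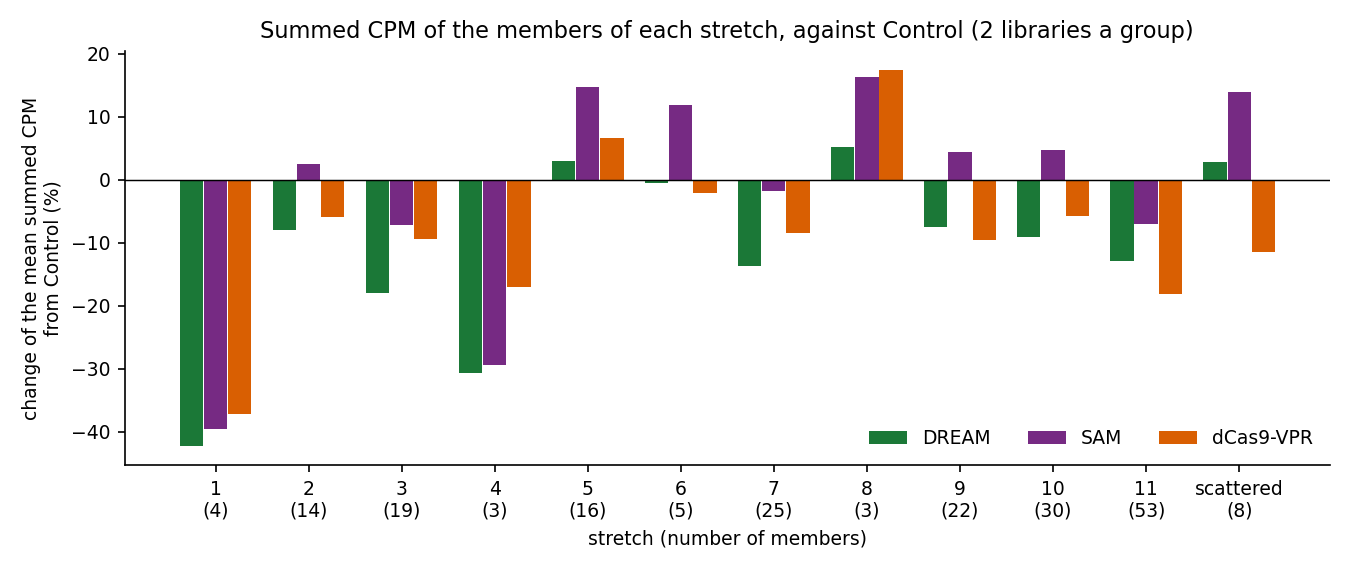
Change of the mean summed CPM of each stretch's members from Control, in percent, with DREAM, SAM and dCas9-VPR, as bars from 0 (means of 2 libraries, no error drawn). Stretch 1, with 4 members, changed by -42.3%, -39.6% and -37.2%, and stretch 8, with 3 members, by 5.23%, 16.4% and 17.5%.

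The systems were also compared with each other. DREAM was below SAM for 4 members (ZNF383, ZNF564, ZNF566 and ZNF416) and above it for 0 by limma, the count also at an unadjusted p below 0.05, against 9.14% lower and 1.59% higher over all genes tested. The median log2 difference was -0.156 over the members and -0.090 over all genes. More members were lower in a fit with a replicate block, which was not used because the labels tie no replicate numbers together. None of the 4 calls held under every alternative, since 0 remained under median-of-ratios scaling or without any library other than DREAM replicate 1, and 13 were made without that library. ZNF566 was at 8.56 and 7.07 CPM with DREAM and at 10.5 and 10.9 CPM with SAM, and ZNF383 at 4.40 and 4.92 CPM with DREAM and at 6.60 and 6.64 CPM with SAM. ZNF564 shares 65.0% of its 75-base transcript windows with other genes, so that its value is uncertain.

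DREAM was above dCas9-VPR for 2 members (ZNF473 and ZNF837) and below it for 0 by limma, or 8 at an unadjusted p below 0.05, against 7.90% higher and 5.21% lower over all genes tested. SAM was above dCas9-VPR for 22 members and below it for 0 by limma, or 3 at an unadjusted p below 0.05, against 23.6% higher and 6.32% lower. The 22 became 4 higher and 4 lower under median-of-ratios scaling, and numbered 10, 5, 7 and 5 without SAM replicate 1, SAM replicate 2, dCas9-VPR replicate 1 and dCas9-VPR replicate 2. The share of 12.3% higher among the members was below that of all genes, and only 1 member, ZNF837, reached a fold change above 2 in some fits, against 2.27% of all genes tested.

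ZNF473, the zinc finger protein ZFP100 of the U7 snRNP machinery that processes histone mRNA 3′ ends, had the smallest adjusted p of the members between systems. It was at 34.9 and 31.6 CPM in Control, 34.6 and 30.2 with DREAM, 35.4 and 40.2 with SAM, and 20.5 and 19.4 with dCas9-VPR. The dCas9-VPR libraries lay below the other 6, and Control and DREAM overlapped. The log2 fold change was -0.72 relative to Control, and DREAM and SAM exceeded dCas9-VPR by 0.69 and 0.90 (SE 0.096 each, limma adjusted p = 0.00139, 0.00214 and 0.00029), calls that held under every alternative. It overlaps AC010624.1 on the same strand and VRK3 on the other strand.

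ZNF461 was at 12.8 CPM and 12.9 CPM in Control, 10.3 and 8.78 with DREAM, 12.2 and 10.9 with SAM, and 7.93 and 7.12 with dCas9-VPR. SAM exceeded dCas9-VPR by 0.58 on the log2 scale (SE 0.114, limma adjusted p = 0.00392), whereas the difference of DREAM from dCas9-VPR did not pass (95% confidence interval 0.07 to 0.57). ZNF837 also was higher with SAM than with dCas9-VPR, but relative to Control it rose with DREAM and SAM. It was at 3.19 and 3.65 CPM in Control, 4.94 and 4.81 with DREAM, 6.80 and 6.48 with SAM, and 3.46 and 2.73 with dCas9-VPR, so that SAM was highest, DREAM next, and Control and dCas9-VPR overlapped. Relative to Control it rose by 0.46 with DREAM and by 0.87 with SAM (SE 0.141 each, limma adjusted p = 0.0342 and 0.000884), and SAM exceeded dCas9-VPR by 1.00 (adjusted p = 0.000838). The call with DREAM was lost under median-of-ratios scaling and without any 1 of the Control, DREAM or SAM libraries.

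ZNF428, in which 1 finger was recognised, was at 30.6 and 25.3 CPM in Control, 39.4 and 36 with DREAM, 48.6 and 38.9 with SAM, and 40.2 and 36.2 with dCas9-VPR. The Control libraries lay below the other 6, and the log2 fold changes were 0.43, 0.63 and 0.45 (SE 0.122 each, limma adjusted p = 0.0252, 0.00253 and 0.032). The DREAM and dCas9-VPR calls were lost without Control replicate 2, where the log2 fold changes were 0.29 and 0.31. The DREAM call was also lost without DREAM replicate 1, and the dCas9-VPR call without either dCas9-VPR library. It overlaps SRRM5 on the other strand. ZNF100 was at 8.74 and 8.35 CPM in Control and at 11.7 and 10.6 CPM with dCas9-VPR, but its log2 fold change of 0.37 (adjusted p = 0.047) passed in only 5 of 13 alternatives.

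**Figure D5:**
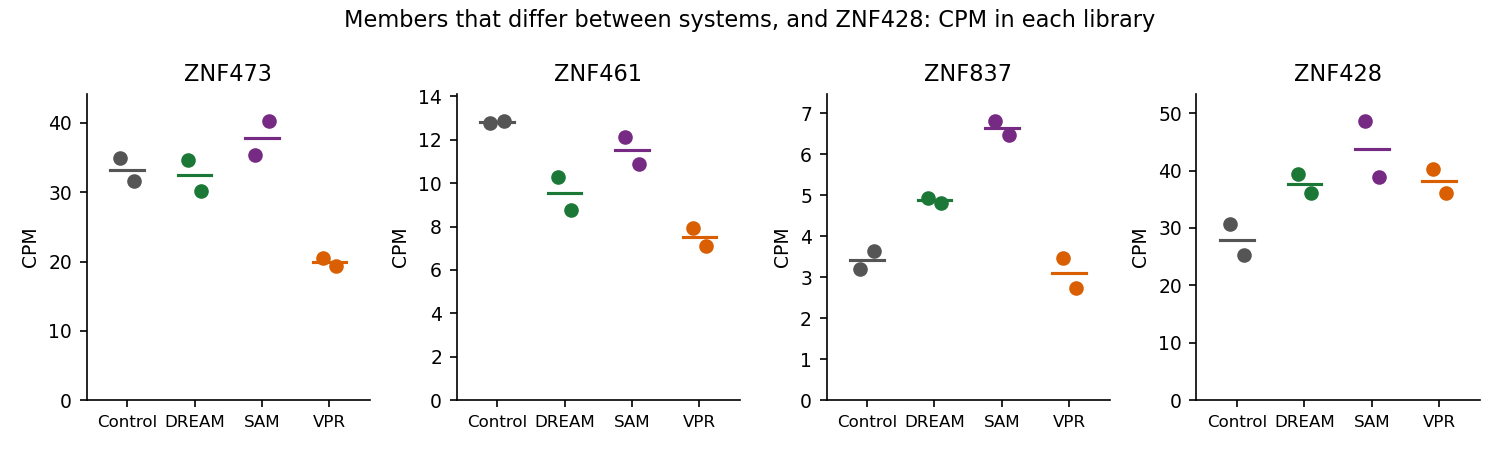
CPM of ZNF473, ZNF461, ZNF837 and ZNF428 in each library (points, 2 per group) with the group mean (line), on axes that start at 0. ZNF473 is lower in the dCas9-VPR libraries alone (20.5 and 19.4 CPM), ZNF837 is highest with SAM (6.80 and 6.48 CPM), and ZNF428 is above Control in all 6 libraries with an activator.

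Members with a known role were given whatever their values. Among those below, ZNF296 overlaps GEMIN7-AS1 on the same strand. ZNF274, which binds the 3′ ends of ZNF genes and recruits SETDB1 there, was at 25.8 and 28.8 CPM in Control, 21.0 and 22.7 with DREAM, 24.6 and 27.2 with SAM, and 21.1 and 20.1 with dCas9-VPR. It had log2 fold changes of -0.31 with DREAM and -0.40 with dCas9-VPR (SE 0.090 each, limma adjusted p = 0.0261 and 0.0155), and SAM overlapped Control. Both calls were lost without Control replicate 2, that with DREAM also without DREAM replicate 1, and that with dCas9-VPR also without either dCas9-VPR library. ZNF296 fell with dCas9-VPR, from 5.33 and 4.50 CPM to 2.86 and 2.63 (log2 fold change -0.73, adjusted p = 0.011), a call lost without Control replicate 1 or either dCas9-VPR library. ZNF581 also fell with dCas9-VPR, from 66.8 and 75.4 CPM to 52.0 and 56.2 (log2 fold change -0.39, adjusted p = 0.0207), lost without Control replicate 2 or either dCas9-VPR library.

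Apart from ZNF473, described above, the other members with a known role passed in no comparison. ZNF417 and ZNF587, paralogous repressors of endogenous retroviruses, were at 1.46 to 2.09 and 1.40 to 2.25 CPM over the 8 libraries, and ZNF417 shares 28.6% of its windows with other genes. ZNF224, a repressor that interacts with WT1, was at 4.31 to 5.55 CPM, ZNF675 at 5.27 to 6.95, ZNF649 at 8.41 to 11.0, ZNF568 at 2.91 to 4.28 and ZNF536, a regulator of neuronal differentiation, at 5.35 to 9.20 CPM. ZNF146, a protein made almost wholly of fingers, was among the most abundant at 49.9 to 63.5 CPM. ZNF91, the repressor of SVA elements and the member with the most fingers (31), was at 0.160 to 0.483 CPM, and ZNF331, an imprinted gene, at 0.141 to 0.734 CPM. ZNF541, which acts in meiosis, was at 0.160 and 0.163 CPM in Control and between 0.343 and 0.938 CPM elsewhere. These last 3 were below the filter and were not tested.

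The cofactors through which KRAB zinc finger proteins act were counted from a list of 34 genes, all tested. With DREAM 4 were higher and 5 lower, with SAM 13 and 3, and with dCas9-VPR 3 and 2, and median log2 fold changes were 0.006, 0.178 and 0.054, against 0.064, 0.163 and 0.061 over all genes tested. Of all genes tested, 18.8%, 35.7% and 11.0% were higher and 9.25%, 8.89% and 6.68% lower in the same comparisons. TRIM28, the KRAB corepressor, was at 442.4 to 478.7 CPM in all 8 libraries and passed in no comparison with Control. SETDB1 was at 63.0 and 64.3 CPM in Control, 75.2 and 70.2 with DREAM, 75.7 and 80.7 with SAM, and 66.2 and 67.0 with dCas9-VPR, and rose with DREAM and SAM (log2 fold changes 0.19 and 0.29, adjusted p = 0.0434 and 0.00358). In all 3 comparisons HDAC1 and DNMT3B rose and UHRF1, which guides maintenance DNA methylation, fell. The rise of HDAC1 with dCas9-VPR was near the threshold (log2 fold change 0.14, limma adjusted p = 0.0498). SUV39H1 and RBBP4 fell with DREAM (-0.27 and -0.16) and SAM (-0.23 and -0.19). Whether the cofactor calls held under the alternative fits is not given here. UHRF1 was at 50.6 and 51.0 CPM in Control and between 36.8 and 44.1 CPM elsewhere. ATF7IP, the partner of SETDB1, and CBX3, a heterochromatin protein 1, fell with DREAM, from 50.5 and 44.5 to 38.4 and 29.2 CPM and from 215.0 and 215.7 to 171.6 and 176.9 CPM. Their part in the members' levels was not tested.

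Related sequence limits some of these values. Of the 202 members, 17 shared at least 20% of their 75-base transcript windows with another gene of chromosome 19 or another ZNF gene, and 85 shared none. Without the 17, a count made after the data were seen, 166 members were tested, of which 32 were lower with DREAM, 21 with SAM and 32 with dCas9-VPR, and 2, 14 and 2 were higher. ZNF177 and the read-through gene ZNF559-ZNF177 share 85.0% and 72.2% of their windows, so that the call of ZNF177 between SAM and dCas9-VPR (log2 difference 0.71) is uncertain. Of the 14 members lower in all 3 comparisons, ZNF222 shared most, at 13.4%.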

How the data were processed

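RNA-seq was analysed in HEK293T cells, 4 groups of 2 libraries each, grouped by the sample labels. According to the submitters' notes and the methods, paired-end reads of 75 bases were aligned with STAR 2.7.3a to hg38 with Gencode 36, transcript levels were quantified by a Bayesian approach, and the authors deposited CPM values over the 19770 genes listed, with the same total in every library. The authors used DESeq2 for their own tests. How the genes were chosen and whether strand was used in counting are not given in the sources used here. The kit named is for total RNA, whereas the labels give polyA RNA. An offset of 0.0001 CPM was subtracted.

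For the 15122 genes that reached 1 CPM in 2 or more libraries, group means of log2(CPM + 0.5) were estimated and set against each other in 6 contrasts (limma 3.58.1, R 4.3.3, robust with an intensity trend), which leaves 4 residual degrees of freedom. P-values were adjusted by Benjamini-Hochberg over these genes. Calls were made at an FDR below 0.05, and also with a fold change above 2, the authors' threshold. Fold changes are on the log2(CPM + 0.5) scale, which understates those of low genes. The depth of 28.5 to 35.2 M reads and 2 libraries per group limit the precision. The fit was tested on simulated data.

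Starts are those of the files on hg38, and ends are 1 base below the deposited stop, which placed 188 of 202 members on their Gencode 44 end. Fingers, the KRAB A box pattern, exon lengths and shared windows came from Gencode 44, read with Python 3.11.15, pandas 2.3.3 and Biopython 1.88. Promoters came from RefSeq (GRCh38.p14), and 152 of the 181 windows used start within 1000 bases of the gene's listed 5′ end. Members named are, per comparison with Control, the 5 largest rises and falls with an FDR below 0.05, a mean of at least 3 CPM and groups that do not overlap, the 3 largest per direction between systems, those past a fold change of 2, the 5 highest and 3 lowest per kb, and those with a known role, of which ZNF93 and ZNF808 were not analysed here. Others are said to be named after their values were seen, as are members counted in a stretch. The members and lists were chosen with earlier results of these data known. Alternatives were pseudocounts of 0.1 and 1, no filter, median-of-ratios scaling, a replicate block and leaving out each library.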

Additional observations from a re-analysis of the deposited data

How the results depend on the processing

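All members called in any of the 6 comparisons kept their direction in the 13 alternative fits. How often the calls of all genes tested held under every alternative is not given here. Of 37 calls with DREAM, 37 with SAM and 34 with dCas9-VPR relative to Control, 15, 11 and 10 passed under every alternative, as did 0 of 4, 1 of 2 and 3 of 22 calls of DREAM against SAM, DREAM against dCas9-VPR and SAM against dCas9-VPR. Median-of-ratios scaling divides SAM values by larger factors (1.08 and 1.07) than Control values (0.959 and 0.937). Under it, higher and lower calls were 1 and 53 with DREAM, against 13.7% and 14.3% of all genes tested. With SAM they were 2 and 49, against 18.1% and 21.1% of all genes tested under that scaling, and with dCas9-VPR 1 was higher. Between systems it gave 0 lower for DREAM against SAM, 1 lower for DREAM against dCas9-VPR, and 4 higher and 4 lower for SAM against dCas9-VPR. Median log2 fold changes under it were -0.23 with DREAM, -0.174 with SAM, -0.18 with dCas9-VPR and 0.003 for SAM against dCas9-VPR. Replicates numbered alike correlated over all genes at r of 0.133 to 0.326 in deviations from their group means, but the labels tie no numbers together and there are only 2, so the pairing was not used. With a replicate block the calls were 5 higher and 54 lower with DREAM, 26 higher with SAM, 6 higher with dCas9-VPR, 27 lower for DREAM against SAM, 10 higher and 7 lower for DREAM against dCas9-VPR, and 45 higher and 3 lower for SAM against dCas9-VPR. A pseudocount of 1 left 1 member lower past a fold change of 2 with dCas9-VPR, no filter left 1 higher with dCas9-VPR, and a pseudocount of 0.1 or no filter gave 1 higher past a fold change of 2 for SAM against dCas9-VPR. The cause of the other shifts was not tested.

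Leaving out 1 library, for which a lone sample is assumed to vary like the other groups, gave 0 to 3 higher and 16 to 41 lower with DREAM, 4 to 16 and 12 to 28 with SAM, and 0 to 2 and 10 to 39 with dCas9-VPR. For DREAM against SAM it gave 0 to 13 lower, for DREAM against dCas9-VPR 1 to 4 higher and 0 to 2 lower, and for SAM against dCas9-VPR 5 to 29 higher and 0 to 2 lower. Past a fold change of 2 it gave 2 to 4 lower with DREAM, 1 to 3 lower with dCas9-VPR and 0 to 1 higher for SAM against dCas9-VPR. Medians ran from -0.214 to -0.114 with DREAM, -0.033 to 0.039 with SAM, -0.171 to -0.111 with dCas9-VPR, -0.26 to -0.087 for DREAM against SAM, -0.084 to 0.031 for DREAM against dCas9-VPR and 0.092 to 0.18 for SAM against dCas9-VPR. Only 2 libraries per group and the low level of the members, with a median of 5.01 CPM, limit what could be detected.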
